A study of Mus musculus with 10 samples.

Results

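The V2 interneuron transcription factors examined here were 8 genes: Vsx1, Sox14 and Shox2 of the excitatory V2a class, Gata2, Gata3, Tal1 and Tal2 of the inhibitory V2b class, and Foxn4 of the common V2 precursors. They were chosen by name from knowledge of the spinal cord, and are 8 of the 48974 genes to which the deposited counts could be assigned. RNA of YFP-positive cells sorted from e10.5 mouse spinal cords was sequenced in 5 control and 5 cdKO samples. All 10 samples carried Olig2-Cre and the Rosa26R-YFP reporter. In addition, control samples carried 1 floxed and 1 wild-type allele of both Oc1 and Oc2 (Oc1+/Flox, Oc2+/Flox), so that recombination leaves them 1 intact copy of each, whereas cdKO samples carried 1 floxed and 1 null allele of both. Olig2 is expressed in motor neuron progenitors, hence the sorted cells are mainly of the motor neuron lineage, and the study's methods do not say how many embryos made up a sample. Whether the samples came from separate embryos or litters is not given, and p-values measure only the spread between these samples.

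V2 interneurons arise from p2 progenitors, the domain just dorsal to the motor neuron progenitors. Foxn4 acts in the last divisions of these progenitors, upstream of the Notch ligand Dll4, and Notch signalling between sister cells then directs one towards the V2a fate, marked by Vsx1, Sox14 and later Shox2, and the other towards the V2b fate, marked by Gata2, Gata3 and Tal1. Outside the nervous system Gata2, Gata3 and Tal1 act in blood cells, and Gata2 and Tal1 are required for the first blood precursors and are active in endothelial cells.

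Promoter windows of 250 bases are shown because counts of single exons, given further on, bear on which start site was read (the distal and the inner start of Tal1, the distal start of Gata2 and the start of Gata3), or, for Shox2, because it gave the largest fitted change. Each ends just before a RefSeq start on GRCm38.p6, written 5′ to 3′ on the strand of the gene, and lies outside the exons that the annotation used here gives for that gene, although the Gata3 window overlaps an exon of the antisense gene Gm13256. Capitals mark the letters of 5 short motifs searched on both strands: GATAA, bound by GATA factors, CAGATG and CAGCTG, bound by basic helix-loop-helix factors, and ATTGAT and ATCGAT, bound by Onecut factors. The windows lie at chr4:115056176-115056425 and chr4:115057561-115057810 (Tal1, plus strand), chr6:88193641-88193890 (Gata2, plus strand), chr2:9878601-9878850 (Gata3, minus strand) and chr3:66981772-66982021 (Shox2, minus strand).
Tal1 distal start: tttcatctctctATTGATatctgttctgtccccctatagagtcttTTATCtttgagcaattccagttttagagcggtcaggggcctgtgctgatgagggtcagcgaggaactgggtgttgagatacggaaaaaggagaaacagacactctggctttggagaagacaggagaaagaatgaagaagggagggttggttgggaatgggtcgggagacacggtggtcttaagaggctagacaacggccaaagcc
Tal1 inner start: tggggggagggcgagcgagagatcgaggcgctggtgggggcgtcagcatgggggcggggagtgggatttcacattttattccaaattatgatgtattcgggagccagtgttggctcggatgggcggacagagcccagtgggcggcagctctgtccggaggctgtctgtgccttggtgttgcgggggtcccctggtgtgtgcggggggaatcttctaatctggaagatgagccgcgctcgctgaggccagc
Gata2 distal start: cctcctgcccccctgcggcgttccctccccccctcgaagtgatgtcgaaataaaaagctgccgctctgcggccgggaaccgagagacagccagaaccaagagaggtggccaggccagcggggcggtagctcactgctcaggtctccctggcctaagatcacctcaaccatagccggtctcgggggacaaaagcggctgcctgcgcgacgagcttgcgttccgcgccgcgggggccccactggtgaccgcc
Gata3 start: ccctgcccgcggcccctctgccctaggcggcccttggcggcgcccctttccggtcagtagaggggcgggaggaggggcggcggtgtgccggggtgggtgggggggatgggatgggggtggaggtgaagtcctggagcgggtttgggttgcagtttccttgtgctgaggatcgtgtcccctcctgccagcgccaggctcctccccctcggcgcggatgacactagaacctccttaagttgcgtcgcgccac
Shox2 start: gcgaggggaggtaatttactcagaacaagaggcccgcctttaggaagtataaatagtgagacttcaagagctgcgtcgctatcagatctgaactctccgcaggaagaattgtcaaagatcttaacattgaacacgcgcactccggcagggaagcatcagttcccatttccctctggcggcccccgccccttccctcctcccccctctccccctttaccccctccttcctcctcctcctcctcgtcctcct
All 8 genes had an entry, with 10 promoters in all, and 2 of the 10 held a motif. The window before the distal start of Tal1 contained ATTGAT, 238 bases before the start, and TTATC, the reverse complement of GATAA, 205 bases before it. The window of Vsx1 contained CAGCTG at 79 and 44 bases before its start. Among 32851 RefSeq promoters of the same length, 6.72% held ATTGAT, 0.728% ATCGAT, 22.6% GATAA, 14.4% CAGATG and 13.0% CAGCTG. The motifs were chosen after these sequences had been searched, and a match describes letters only.

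The deposited values are raw counts per exon bin (a non-overlapping part of an exon), and reads that overlap several bins count on each of them. Totals ranged from 63932395 to 107709534 in control and from 72315782 to 84249157 in cdKO samples. Exon 1 of Oc1 (Onecut1) had 63 to 210 counts in control and 0 to 17 in cdKO samples, and Oc3 (Onecut3) 29 to 68 and 0 to 3, whereas counts over Oc2 (Onecut2) ranged from 103 to 636 in control and from 106 to 974 in cdKO samples. The floxed part of Oc2 was not counted separately here, so the Oc2 counts do not check its deletion, and the study describes the remaining Oc2 reads in these samples as coming from shortened transcripts. The motor neuron markers Isl1 and Lhx3 were high in every sample (at least 95.8 and 33.5 CPM, counts scaled to a common TMM-adjusted library size). Further, 2 libraries stood apart in how counts lay along genes. The median share of a gene's counts in its last 1000 exonic bases was 52.4% in cdKO replicate 5 and 31.1% in control replicate 5, against 22.4% to 24.3% in the other 8 samples (8632 genes). Therefore the comparisons are given with and without cdKO replicate 5.

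All 8 genes were detected, and all at low levels. Compared per length, as CPM per kilobase of exon bins, Foxn4 was highest in control samples at 1.38 ± 0.761 (SD, n = 5), followed by Gata2 at 0.680 ± 0.457, Gata3 at 0.464 ± 0.316, Vsx1 at 0.416 ± 0.164, Tal1 at 0.388 ± 0.250, Shox2 at 0.229 ± 0.179, Sox14 at 0.187 ± 0.145 and Tal2 at 0.0722 ± 0.0378. On this scale each gap between neighbours was smaller than the larger of their SDs. However, the genes were measured in the same samples, and their order within samples was not tested. In cdKO samples Foxn4 was again highest at 1.32 ± 0.613, and only the gap from Vsx1 (0.607 ± 0.219) down to Sox14 (0.254 ± 0.173) exceeded the SDs of both genes. The progenitor and motor neuron markers Olig2, Lhx3 and Isl1 reached 27.1 ± 7.82, 31.7 ± 9.63 and 56.8 ± 20.3 CPM per kilobase in control samples. Of the 17838 genes that passed the filter on low counts, 39.5% had a lower mean per length over the 10 samples than Foxn4 and 4.5% a lower one than Tal2. In such sorted populations, fewer cells of a type and less RNA per cell cannot be told apart.

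**Figure D1:**
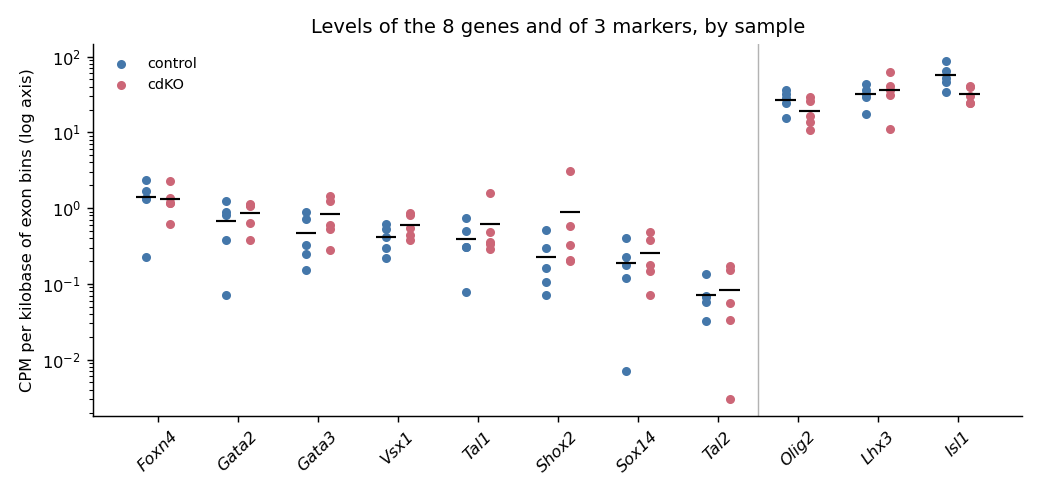
CPM per kilobase of exon bins (log axis) in each control (blue) and cdKO (red) sample for the 8 V2 genes, left of the line, and for Olig2, Lhx3 and Isl1, right of it; black lines are group means. The V2 genes lie well below Olig2, Lhx3 and Isl1, and the cdKO sample in which Tal2 had 0 counts is drawn at the foot of the axis.

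In the comparison of control and cdKO samples, which asks whether loss of the Onecut factors in this lineage changed the V2 genes, none of the 8 passed the test. Fitted over all 10 samples, the change was positive for 7 of the 8 genes and between -0.06 (Foxn4) and 1.93 (Shox2) on the log2 scale, with a median of 0.49, while the median over all 17838 genes tested was -0.02 and 48.2% of them had a change above 0. Without cdKO replicate 5 the change was again positive for 7 of the 8 genes, all but Tal1, with a median of 0.33, against 49.8% of all genes. By edgeR (quasi-likelihood test, p-values adjusted by Benjamini-Hochberg over all genes tested) the adjusted p of the 8 genes lay between 0.939 and 0.999, and the percentage of all genes called was 0% (0.00551% without cdKO replicate 5, where again none of the 8 was called). At an unadjusted p under 0.05, 1 of the 8 genes (Shox2) was higher in cdKO samples, against 4.18% of all genes that were higher and 4.99% that passed in either direction, and without cdKO replicate 5 none of the 8 was, against 2.36% of genes in either direction. The value ranges of control and cdKO samples overlapped for all 8 genes, as for all but 0.404% of the genes tested. All 8 genes passed the filter on low counts in both fits.

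**Figure D2:**
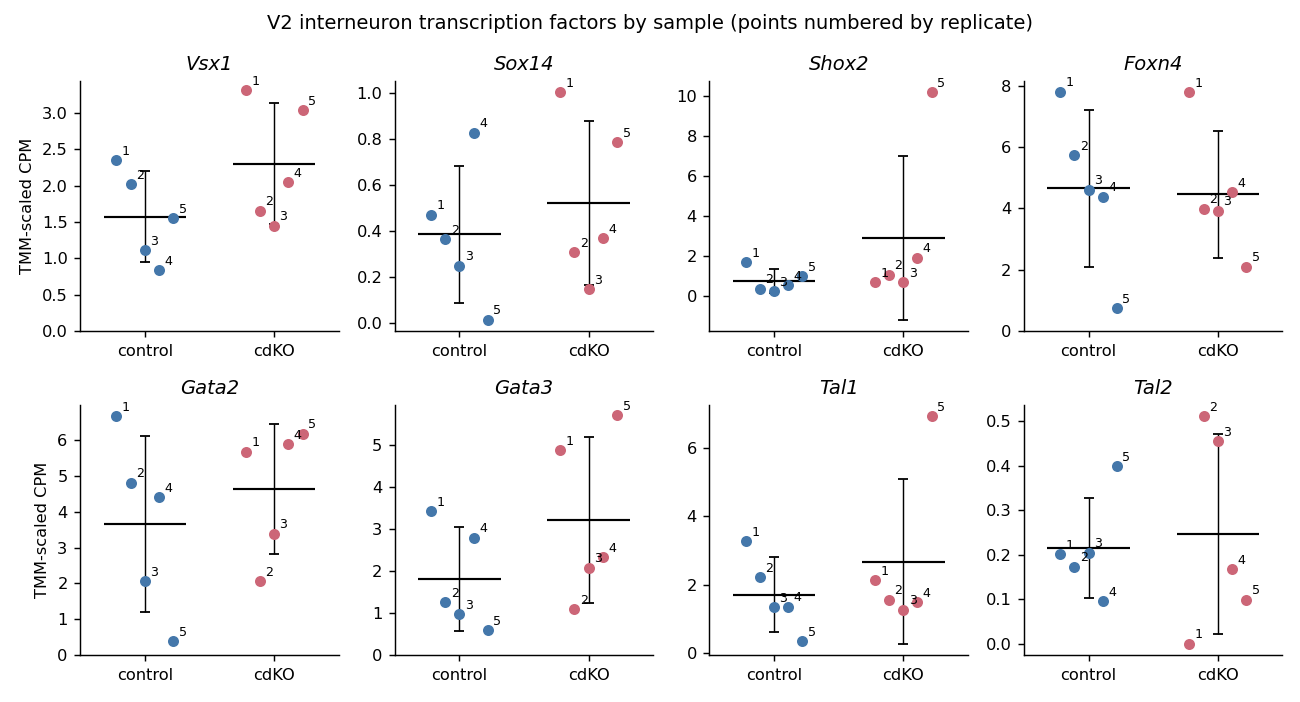
TMM-scaled CPM of each of the 8 genes in the 5 control (blue) and 5 cdKO (red) samples; points are samples numbered by replicate, horizontal lines are means and vertical bars SD. The groups overlap in every panel; cdKO replicate 5 stands above the other cdKO samples for Shox2 (10.2 CPM) and Tal1 (6.93 CPM), and control replicate 5 is lowest for Sox14, Foxn4, Gata2, Gata3 and Tal1.

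Of the V2a genes, Shox2 gave the largest fitted change. This homeobox gene (ENSMUSG00000027833), which marks a subset of V2a and other excitatory rhythm-related interneurons at later stages, lies on the minus strand at chr3:66971727-66981771 and has 7 merged exons. Its CPM was 1.70, 0.355, 0.239, 0.529 and 0.975 in control replicates 1 to 5 and 0.673, 1.07, 0.676, 1.92 and 10.2 in cdKO replicates 1 to 5. The value of cdKO replicate 5 was above every other sample, and the other 4 cdKO samples overlapped the controls. The means were 0.759 ± 0.594 in control and 2.91 ± 4.11 in cdKO samples (SD, n = 5 each), so that the fitted log2 fold change was 1.93 ± 0.81 (SE, unadjusted p = 0.0327, adjusted p = 0.939 by edgeR). An exact two-sided permutation test over all arrangements of the samples gave p = 0.175. Without cdKO replicate 5 the cdKO mean was 1.09 ± 0.587 (n = 4) and the log2 fold change 0.52 ± 0.58 (SE). Shox2 is also among the selected candidates that the study lists with their fold changes, and is higher in cdKO samples there. Its adjusted p in that list is far above the threshold used here, so the list does not establish a change of Shox2. The list was drawn from these samples and is not independent evidence of its direction.

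The counts behind this value lay on the last exon. Exon 7 of Shox2 (chr3:66971727-66973943, which the annotation places at its 3′ end) received 94, 16, 13, 20 and 39 counts in control replicates 1 to 5 and 26, 55, 41, 125 and 473 in cdKO replicates 1 to 5. Exons 1 to 6 together received 75, 21, 8, 19 and 27 counts in control and 27, 35, 14, 36 and 45 in cdKO samples. Thus in cdKO replicate 5 the last exon held 91.3% of the counts of Shox2, against 43.2% to 77.6% in the other 9 samples. Relative to the mean of the other 4 cdKO samples, cdKO replicate 5 was 12.5-fold higher on the last exon and 2.61-fold higher on the other exons. With the last exon of every gene left out, an alternative chosen after seeing the data, the log2 fold change of Shox2 was 0.56 ± 0.68 (SE). Outside the last 1000 exonic bases of each gene, also chosen after seeing the data, it was 1.72 ± 0.82 (SE). With cdKO replicate 5 left out as well it was 0.41 ± 0.61, and on the last 1000 bases alone Shox2 gave no value. Of its counts, 1.49% lay on bins that also overlap Rsrc1 on the opposite strand, and strand was not used in the counting.

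**Figure D3:**
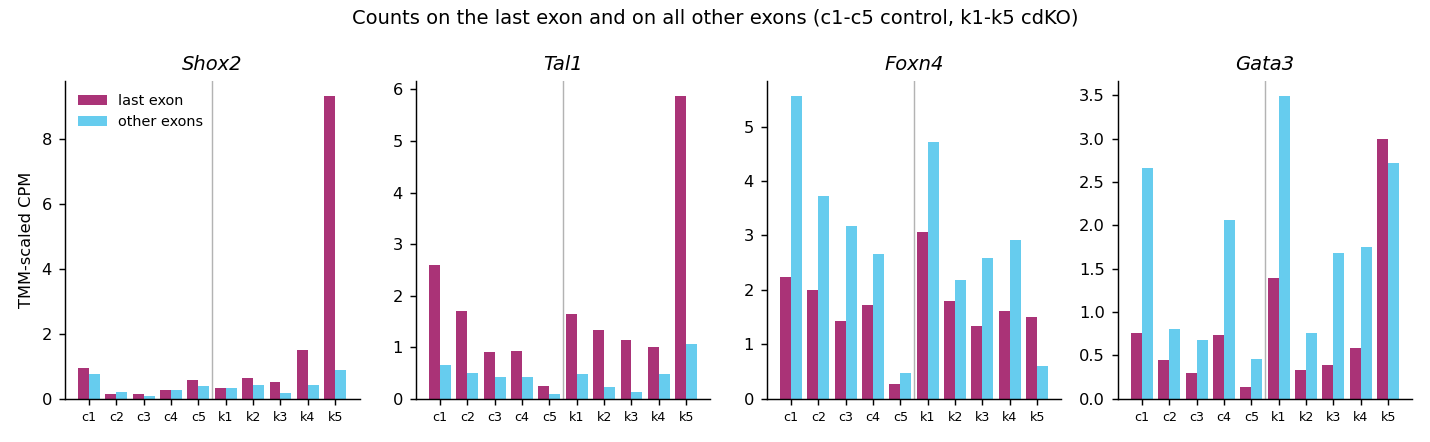
TMM-scaled CPM on the last exon (purple) and on all other exons together (light blue) of Shox2, Tal1, Foxn4 and Gata3 in control replicates 1 to 5 (c1 to c5) and cdKO replicates 1 to 5 (k1 to k5). In cdKO replicate 5 the last exon carries 91.3% of the counts of Shox2 and 71.0% of those of Foxn4, a larger share than in any other sample for these genes and for Gata3 (52.4%), but not for Tal1.

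Vsx1 (ENSMUSG00000033080, minus strand, chr2:150680702-150689360), a homeobox gene of p2 progenitors and young V2a cells, varied least between samples, from 0.841 to 3.31 CPM. It had 2.35, 2.02, 1.11, 0.841 and 1.55 CPM in control and 3.31, 1.65, 1.45, 2.05 and 3.03 CPM in cdKO replicates 1 to 5. The 2 highest values were from cdKO replicates 1 and 5 and the 2 lowest from control replicates 3 and 4, with the other 6 intermixed. The log2 fold change was 0.54 ± 0.40 (SE, adjusted p = 0.997 by edgeR, exact two-sided permutation p = 0.151) and 0.43 ± 0.38 without cdKO replicate 5. Its 5 exons all had counts in all 10 samples. In the 25 alternative settings its log2 fold change stayed between 0.37 and 0.73, and adjusted p between 0.673 and 1.

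Sox14 (ENSMUSG00000053747, minus strand, chr9:99874106-99876170), an HMG box gene of postmitotic V2a neurons, has a single exon. It had 47, 38, 22, 61 and 1 counts in control replicates 1 to 5 and 79, 26, 12, 31 and 40 counts in cdKO replicates 1 to 5. Control replicate 5 was thus below the floor of 3 counts used here as the limit of detection, which covers counting error only. In CPM, control samples averaged 0.386 ± 0.300 and cdKO samples 0.523 ± 0.357 (SD, n = 5 each), a log2 fold change of 0.43 ± 0.76 (SE), or 0.24 ± 0.80 without cdKO replicate 5 and 0.13 ± 0.62 without control replicate 5.

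Foxn4 (ENSMUSG00000042002, minus strand, chr5:114254164-114273807), the forkhead factor of V2 precursors, was nearly equal in both groups. Its CPM was 7.80, 5.72, 4.6, 4.38 and 0.754 in control and 7.78, 3.99, 3.92, 4.52 and 2.11 in cdKO replicates 1 to 5. The lowest sample of each group was replicate 5, and the other 8 samples lay between 3.92 and 7.80. The group means of 4.65 ± 2.56 and 4.46 ± 2.07 (SD, n = 5 each) gave a log2 fold change of -0.06 ± 0.51 (SE, adjusted p = 0.999 by edgeR, exact two-sided permutation p = 0.913), and its sign turned to 0.11 ± 0.52 without cdKO replicate 5, whereas it was -0.33 ± 0.39 without control replicate 5. Coverage of Foxn4 was broken in both low libraries. In cdKO replicate 5 exons 6 to 9 had 0 counts, against 111 to 225 in the other cdKO samples, although exons 1 to 4 had 28 counts. In control replicate 5 exons 1 to 4 had 0 counts, against 43 to 180 in the other controls, although exons 6 to 9 had 26.

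Of the V2b genes, Gata2 (ENSMUSG00000015053, plus strand, chr6:88193891-88207032), a zinc finger factor that acts early in V2b cells, had 6.68, 4.81, 2.06, 4.41 and 0.384 CPM in control and 5.69, 2.07, 3.39, 5.90 and 6.18 CPM in cdKO replicates 1 to 5. Apart from control replicate 5, the 2 groups covered nearly the same range. Its log2 fold change was 0.34 ± 0.58 (SE, adjusted p = 0.997 by edgeR) and 0.21 ± 0.63 without cdKO replicate 5, and without control replicate 5 it was 0.05 ± 0.43. Exon 1, which follows the distal start shown above, had 0 to 16 counts and exon 2 had 2 to 19 counts per sample, so that both first exons were read. Exon 5, with 4 to 80 counts elsewhere, had 0 in cdKO replicate 5.

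Gata3 (ENSMUSG00000015619, minus strand, chr2:9857078-9890034), which follows Gata2 in V2b cells, had 3.43, 1.26, 0.978, 2.79 and 0.591 CPM in control and 4.89, 1.10, 2.08, 2.34 and 5.71 CPM in cdKO replicates 1 to 5. Values for cdKO replicates 1 and 5 were above all controls, and the other 3 lay within the control range. The means were 1.81 ± 1.23 and 3.22 ± 1.97 (SD, n = 5 each), a log2 fold change of 0.83 ± 0.56 (SE, adjusted p = 0.982 by edgeR, exact two-sided permutation p = 0.206), or 0.52 ± 0.56 without cdKO replicate 5. Exon 3, which begins at the start site shown above, had 42 counts over 9 samples and 0 in cdKO replicate 5. Conversely exon 2, upstream of that start, had 26 counts in cdKO replicate 5 and 0 to 7 in the others. Of the counts of Gata3, 11.4% lay on bins that overlap Gm13256 on the opposite strand, with which it shares a unit in the deposited counts. These cannot be told apart. Exon 3 has such bins, so its counts do not settle which gene or which start site was read. On bins covered by 1 gene only, its log2 fold change was 0.87 ± 0.59.

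Tal1 (ENSMUSG00000028717, plus strand, chr4:115056426-115071755), a basic helix-loop-helix factor of V2b cells and of the blood lineage, had 3.26, 2.21, 1.34, 1.36 and 0.340 CPM in control and 2.13, 1.56, 1.27, 1.48 and 6.93 CPM in cdKO replicates 1 to 5. The value of cdKO replicate 5 was above and that of control replicate 5 below all other samples, and the other 4 cdKO samples lay within the control range. The log2 fold change of 0.65 ± 0.61 (SE, adjusted p = 0.997 by edgeR, exact two-sided permutation p = 0.421) was -0.09 ± 0.51 without cdKO replicate 5 and 0.38 ± 0.55 without control replicate 5. Moreover, it was 2.02 ± 0.94 when only the last 1000 exonic bases of each gene were counted and 0.33 ± 0.57 outside them. Exon 1, after the distal start shown above, had 0 counts in all 10 samples, and exon 3, after the inner start, had 6 counts over 3 samples. Most counts of Tal1 were on exon 7 (1320 of 1674).

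Tal2 (ENSMUSG00000028417, plus strand, chr4:53779705-53788712), a relative of Tal1, was the scarcest of the 8 genes. Control replicates 1 to 5 had 20, 18, 18, 7 and 27 counts of Tal2, and cdKO replicates 1 to 5 had 0, 43, 37, 14 and 5. The highest and the lowest counts were both from cdKO samples. Its log2 fold change was 0.21 ± 0.83 (SE) with all samples and 0.41 ± 0.84 without cdKO replicate 5, with an adjusted p of 0.9986 and 0.9999 by edgeR.

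**Figure D4:**
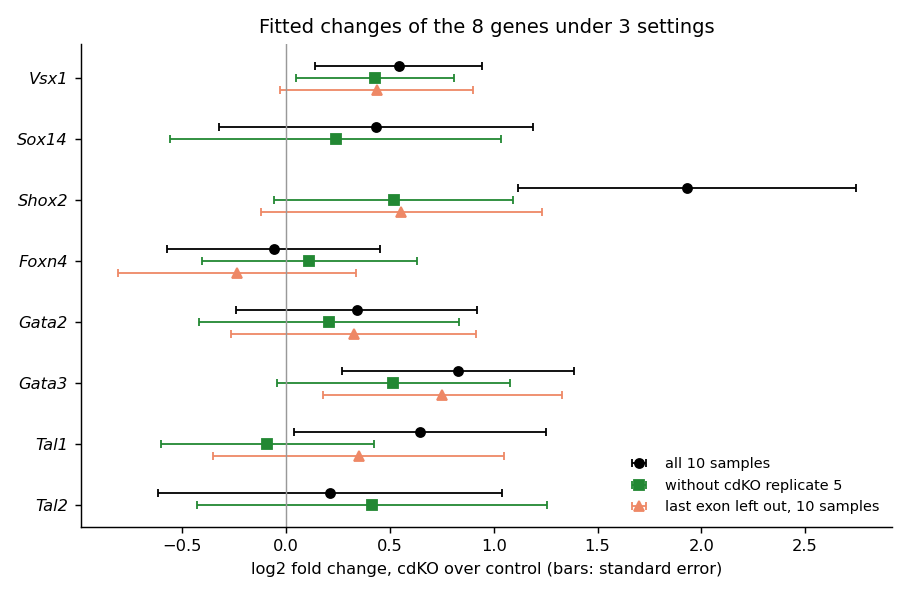
Log2 fold change (cdKO over control) of the 8 genes from edgeR, with standard errors as bars, for all 10 samples (black), without cdKO replicate 5 (green) and with the last exon of each gene left out (orange). Shox2 drops from 1.93 to 0.52 and 0.56, Tal1 moves from 0.65 to -0.09 and 0.35, and without the last exon there is no value for Sox14, which has a single exon, or for Tal2, which did not pass the filter.

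The summed CPM of the 4 V2b genes was 13.6, 8.45, 4.58, 8.65 and 1.71 in control and 12.7, 5.24, 7.19, 9.88 and 18.9 in cdKO replicates 1 to 5. The sum of the 3 V2a genes was 4.52, 2.74, 1.60, 2.20 and 2.54 in control and 4.99, 3.03, 2.27, 4.34 and 14.0 in cdKO samples. For both classes the samples other than cdKO replicate 5 overlapped. For 5 of the 8 genes (Sox14, Foxn4, Gata2, Gata3 and Tal1) control replicate 5 was the lowest of all 10 samples, as it was for 16.3% of all genes tested. For 3 of the 8 genes (Shox2, Gata3 and Tal1) cdKO replicate 5 was the highest, as it was for 29.5% of all genes.

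Whether the genes of a class varied together between samples was examined in the 28 pairs of the 8 genes, on log2(CPM + 0.5) over the 10 samples. Pearson's r reached an adjusted p under 0.05 in 5 pairs (permutation test with 100000 resamples, adjusted over 28 pairs). Gata2 and Gata3 had r = 0.82 (permutation p = 0.00123, adjusted p = 0.0307) and Spearman's rho = 0.87 (p = 0.0023, adjusted p = 0.0215). Gata3 and Tal1 had r = 0.77 (permutation p = 0.00606, adjusted p = 0.0424) and rho = 0.70 (p = 0.0312, adjusted p = 0.0971). These pairs are within the V2b class. The other 3 pairs joined Sox14 of the V2a class with V2b genes, positively for Gata3 (r = 0.84, rho = 0.87, permutation p = 0.0029 and 0.00221, adjusted p = 0.0307 and 0.0215) and Gata2 (r = 0.75, rho = 0.72, permutation p = 0.00873 and 0.0229, adjusted p = 0.0489 and 0.0801) and negatively for Tal2 (r = -0.84, rho = -0.88, permutation p = 0.00329 and 0.00197, adjusted p = 0.0307 and 0.0215). When the 2 samples farthest from the median of the first gene were left out, no pair kept an adjusted p under 0.05, with r = 0.72 for Gata2 and Gata3, 0.42 for Gata3 and Tal1, 0.70 for Sox14 and Gata3, 0.55 for Sox14 and Gata2 and -0.75 for Sox14 and Tal2, so the relations rest in part on those samples. Both groups were pooled, and no group alone has the 6 samples such a relation needs.

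Without cdKO replicate 5, 6 of the 28 pairs had an adjusted p under 0.05. Of these, 3 joined Foxn4 or V2b genes that had not passed by Pearson's r with all samples: Foxn4 with Tal1 (r = 0.95, permutation p = 0.00082, adjusted p = 0.023), Foxn4 with Gata2 (r = 0.91, permutation p = 0.00268, adjusted p = 0.0273) and Gata2 with Tal1 (r = 0.87, permutation p = 0.00383, adjusted p = 0.0273). With all 10 samples the same pairs had r = 0.36, 0.73 and 0.77. Spearman's rho was 0.44, 0.47 and 0.82 (permutation test, adjusted p = 0.302, 0.296 and 0.041), so Gata2 with Tal1 had passed by rho. Control replicate 5, the lowest sample for these 3 genes, was still included. With it and cdKO replicate 5 left out, r was 0.89 for Foxn4 with Tal1 and 0.67 for Foxn4 with Gata2 (permutation test, adjusted p = 0.108 and 0.19). Gata2 with Tal1 had r = 0.54 without control replicates 5 and 3 (permutation test, adjusted p = 0.257). Conversely, 2 of the 5 pairs no longer passed, Gata3 with Tal1 (r = 0.66, permutation p = 0.0463, adjusted p = 0.128) and Sox14 with Gata2 (r = 0.73, permutation p = 0.0253, adjusted p = 0.0787). No pair that includes Shox2 passed in either set of samples, and r between Shox2 and Vsx1 was 0.57 with and 0.41 without cdKO replicate 5. Pearson's r of Tal2 with the other 7 genes was between -0.84 and -0.16 over the 10 samples, but only the pair with Sox14 passed. For Tal2 and Shox2, rho over the 10 samples was 0.02, and r without cdKO replicate 5 was 0.17.

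**Figure D5:**
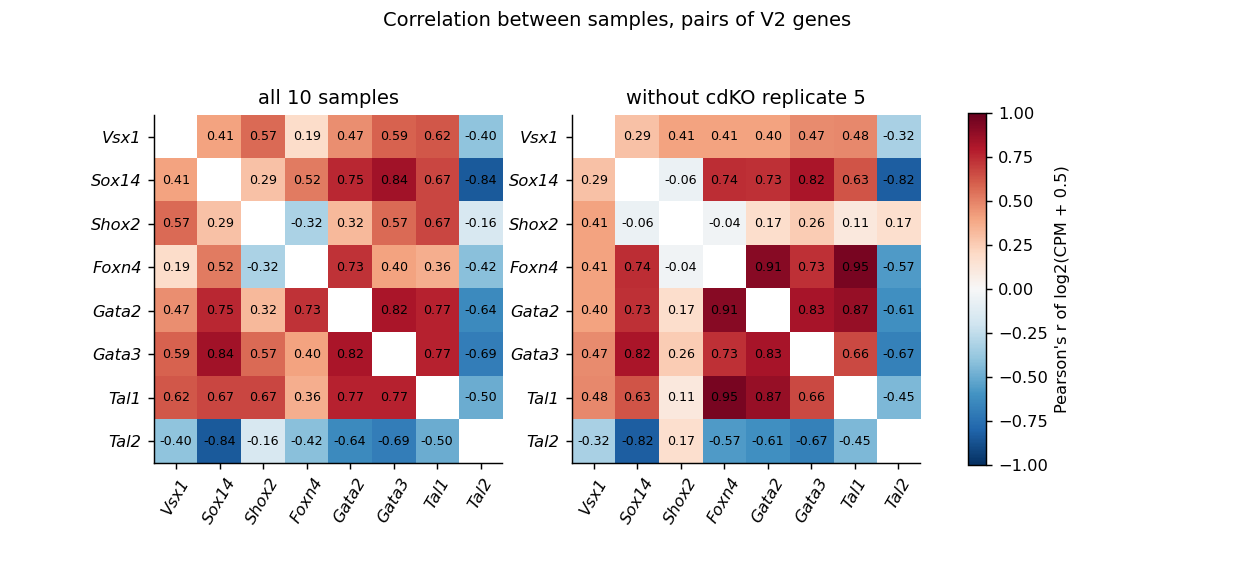
Pearson's r of log2(CPM + 0.5) between pairs of the 8 genes across samples, with all 10 samples on the left and without cdKO replicate 5 on the right; colours run from -1 (blue) to 1 (red). Gata2, Gata3 and Tal1 are positively related in both panels, Foxn4 has higher values with Gata2 and Tal1 on the right, and Tal2 is negative against the other genes on the left.

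The tested genes whose pattern over the 10 samples was most like that of each V2 gene are given as a description, chosen as the highest Pearson's r. For Gata2 they were Scrt2 (r = 0.99), Gprasp2 (r = 0.96) and Magee1 (r = 0.96), and for Gata3 Ppm1h (r = 0.97), Rcan2 (r = 0.95) and Minar1 (r = 0.95). Foxn4 was closest to Camkk1, Nell1 and Ano10 (r = 0.98, 0.98 and 0.97), Tal1 to Nsg2, Gm12224 and Myl4 (all r = 0.97), and genes close to Vsx1 included Gm14486 and Pmm1 (both r = 0.91). Shox2 was closest to Cdkn1b, Gm32647 and Ankra2, with r = 0.98, 0.96 and 0.95 over 10 samples and 0.92, 0.85 and 0.76 without cdKO replicate 5. Among the scarce genes, Sox14 was closest to 4930488L21Rik and Gm21839 (r = 0.96 and 0.92) and Tal2 to 2610301B20Rik, Gm10638 and Gm35570 (r = 0.93, 0.91 and 0.90).

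Around the 8 genes, the other genes of the p2 and V2 lineage did not pass the test either. Of 19 such genes, 18 passed the filter on low counts and 0 had an adjusted p under 0.05. A log2 fold change above 0 was found in 11, against 48.2% of all genes tested, with a median of 0.14. Those reported here include Gad2, an enzyme of GABA synthesis (1.53 ± 0.95, and 0.73 ± 0.93 without cdKO replicate 5), and Bhlhe22, a basic helix-loop-helix factor of several interneuron classes (0.96 ± 0.43, unadjusted p = 0.041, adjusted p = 0.939 by edgeR). Bhlhe22 was 0.609 ± 0.232 CPM in control and 1.18 ± 0.436 CPM in cdKO samples (SD, n = 5 each), and the groups overlapped. Its log2 fold change without cdKO replicate 5 was 0.75 ± 0.35 (SE, unadjusted p = 0.0578 by edgeR). Lhx3, which is shared by V2a and motor neurons, had a log2 fold change of 0.19 ± 0.40, and of 0.42 ± 0.30 without cdKO replicate 5.

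Of 19 Notch pathway genes, listed because Notch signalling acts in the choice between V2a and V2b, all were tested. Of these, 0 had an adjusted p under 0.05 and none an unadjusted p under 0.05. Their log2 fold change was above 0 in 1 of 19 (Dll3), against 48.2% of all genes tested, with a median of -0.30. Without cdKO replicate 5 it was above 0 in 4 of 19, against 49.8% of all genes, with a median of -0.29. Dll4, the Notch ligand downstream of Foxn4, had 1.03, 1.66, 2.15, 3.02 and 1.74 CPM in control and 1.46, 0.785, 0.70, 1.85 and 0.256 CPM in cdKO replicates 1 to 5. The 3 lowest values were from cdKO samples, and the log2 fold change was -0.92 ± 0.51 (SE, adjusted p = 0.943 by edgeR). Without cdKO replicate 5, its lowest sample, it was -0.67 ± 0.41. With all 10 samples the receptor Notch1 (-0.59 ± 0.29) and the ligand Jag1 (-0.56 ± 0.37) had the next largest changes. Without cdKO replicate 5 these were -0.59 ± 0.29 and -0.45 ± 0.37.

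Markers of neighbouring populations were examined beside the V2 genes. Of 12 motor neuron genes, 4 had a log2 fold change above 0 (median -0.13), and 7 did without cdKO replicate 5 (median 0.09). Over all genes tested these shares were 48.2% and 49.8%. The largest changes with all samples were those of Isl1 (-0.83 ± 0.31, unadjusted p = 0.018, adjusted p = 0.939 by edgeR), Foxp1 (-0.59 ± 0.32) and Olig2 (-0.50 ± 0.34). Of 9 genes of other ventral interneurons, 4 passed the filter and none had an unadjusted p under 0.05, the largest changes being those of Dbx1 (0.78 ± 0.41), Uncx (0.35 ± 0.78) and Nkx2-2 (0.08 ± 0.32). Of 10 mesenchyme and neural crest genes, 9 were tested, and those with the largest changes were Twist1 (2.55 ± 0.88, unadjusted p = 0.0123, adjusted p = 0.939 by edgeR) and Pou4f1 (1.42 ± 0.84). Without cdKO replicate 5 these were 1.49 ± 0.75 and -0.05 ± 0.61. The summed CPM of the latter list was 18.3 to 40.6 in control and 15.9 to 39.9 in cdKO samples.

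Because Gata2, Gata3 and Tal1 also act in blood or endothelial cells, markers of these cells were measured in the same libraries. The summed CPM of 14 erythroid genes was 2.70 to 23.5 in control and 5.42 to 68.9 in cdKO samples, with the highest values in cdKO replicates 3 (59.8) and 5 (68.9) and the lowest in control replicate 5. Of the 9 erythroid genes tested, 8 had a log2 fold change above 0 (median 1.87, and 0.79 without cdKO replicate 5), against 48.2% of all genes tested. At an unadjusted p under 0.05 by edgeR, 2 of the 9 were higher in cdKO samples, against 4.18% of all genes. Without cdKO replicate 5 there were 0, against 2.36% of genes in either direction. The largest changes were those of the embryonic globins Hbb-bh1 (2.16 ± 1.05), Hbb-y (2.13 ± 1.0) and Hba-x (2.10 ± 1.08), with an adjusted p of 0.939 by edgeR for all 3. Without cdKO replicate 5 these 3 were 1.99 ± 1.15, 1.65 ± 1.06 and 0.95 ± 1.02. In cdKO replicate 3, where Hbb-y was 25.2 CPM, Tal1 was 1.27 CPM, the lowest of the cdKO samples. In cdKO replicate 5 Hbb-y was 23.6 and Tal1 6.93 CPM. Gata1, the erythroid member of the GATA family, was at 0 in 4 samples and at most 0.197 CPM, and Klf1 at most 0.630 CPM.

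The summed CPM of 10 endothelial genes was 18.2 to 31.7 in control and 18.7 to 36.3 in cdKO samples. Most of this sum came from Egfl7 alone, which was 15.6 to 28.1 CPM in control and 16.5 to 33.1 CPM in cdKO samples. The defining endothelial marker Cdh5 was at 0 in 6 samples and at most 0.138 CPM, Pecam1 lay between 0.0575 and 1.71 CPM and Kdr between 0.140 and 1.82 CPM. The largest changes were those of Tie1 (0.85 ± 1.43), Esam (0.74 ± 0.78) and Kdr (-0.42 ± 0.62), and without cdKO replicate 5 they were 0.55 ± 1.56, 0.77 ± 0.83 and -0.18 ± 0.59. The part of blood or endothelial RNA in the values of Gata2, Gata3 and Tal1 was not tested.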

How the data were processed

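RNA-seq libraries of sorted YFP-positive cells from 5 control and 5 cdKO samples (e10.5) were analysed. The authors deposited raw read counts per exon bin, as whole numbers without normalization. The submitters' processing notes name GRCm38, bcl2fastq 2.17, Trimmomatic 0.36, STAR 2.5.2b, Subread 1.5.2 and DESeq2, without their roles. Of 3712 bins of at most 5 bases between touching bins (lower neighbour of at least 100 counts), the median ratio of the count to that of the lower neighbour was 1.02, which is what results when reads count on each bin they touch, and gene sums count overlaps, not reads. The 16 intervals that occur on both strands had equal counts on either strand, so strand was not used.

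The 425461 bins belong to 48005 units, 1194 of them several joined genes. Of 49644 gene identifiers, 49384 matched GENCODE M21. In joined units a bin went to the gene with an exon around it, or to the only protein-coding gene among several, and 3996 other bins (1.19% of counts) were left out. Low counts were removed with filterByExpr (minimum count 10), library sizes were scaled by TMM, and groups were compared with the quasi-likelihood test of edgeR 4.0.16 (R 4.3.3) and Benjamini-Hochberg adjustment over all 17838 genes tested (18159 without cdKO replicate 5), with a threshold of 0.05. CPM are counts divided by the TMM-scaled library size, as edgeR's cpm function defines them. SE is the standard error of the log2 fold change, from the F statistic. Exact permutation tests compared mean log2(CPM + 0.5). The floor of 3 counts was 0.0288 to 0.0591 CPM.

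The fits were tested on simulated counts with known changes. Alternatives were other scalings, DESeq2 1.42.0, limma-voom (limma 3.58.1), other count filters, other sets of bins, a block for the replicate number and fits without each sample, and 3 settings that leave out the ends of genes were added after seeing the data. The 8 genes, the other lists and the rule for named genes (list genes that pass the test, the 3 largest changes of each list, defining markers, and the 3 tested genes most like each V2 gene) were chosen with earlier results of these data known. Some genes that this rule names are not reported here. Within groups no pair of samples was a duplicate (chi-square per degree of freedom 121 to 1899). The sample descriptions give stages other than e10.5 for 9 samples, and the titles were followed. Replicate numbers are those of the titles. The number in the header of each deposited count table is 1 higher, in both groups alike, so the same samples share a number either way. Promoter windows were taken from RefSeq, and protein sequences were not used here.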

Additional observations from a re-analysis of the deposited data

Results flagged for a closer look

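Each group of 5 samples was searched for a highest or lowest sample that stood far from the others, in 16 groups (8 genes in control and cdKO samples), of which 2 were found. Chance gives about 1 in 20 groups. Among the cdKO samples, replicate 5 was high for Shox2 (10.2 CPM, with the gap to the next sample at 0.869 of the range) and for Tal1 (6.93 CPM, 0.847 of the range). In that library the median share of a gene's counts in its last 1000 exonic bases was 52.4%, and the sum of erythroid genes was 68.9 CPM. Over all 10 samples Shox2 gave no value on the last 1000 bases, and its log2 fold change outside them was 1.72 ± 0.82 (SE). That of Tal1 was 2.02 ± 0.94 on them and 0.33 ± 0.57 outside. The part of the gene ends or of erythroid RNA in the values of Shox2 and Tal1 was not tested.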

How the results depend on the processing

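No V2 gene had an adjusted p under 0.05 in any alternative, whose lowest adjusted p was 0.578 (Shox2). Vsx1, Shox2, Gata2 and Gata3 kept a positive change in every alternative that gave a value, and Shox2 ranged from 0.41 to 2.46. With each sample left out in turn it was 0.52 (without cdKO replicate 5) to 2.46.

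The log2 change of Foxn4 turned positive with limma-voom (0.14), with the replicate block (0.13), on the single highest bin per gene (0.11), on the last 1000 exonic bases (0.087), outside them and without cdKO replicate 5 (0.10), and in some of the fits that left out 1 sample (-0.36 to 0.21). That of Tal1 turned negative with limma-voom and sample quality weights (-0.10), on the single highest bin (-0.084), outside the last 1000 bases and without cdKO replicate 5 (-0.11), and without cdKO replicate 5 (-0.091, against up to 1.02 without another sample). That of Tal2 turned negative with limma-voom (-0.66), with the replicate block (-0.24) and in fits without 1 sample (-0.24 to 0.55). That of Sox14 turned negative with sample quality weights (-0.28) and was 0.05 to 0.88 without 1 sample. The causes were not tested.

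Over all genes, the count with an adjusted p under 0.05 was 0 with edgeR (891 at an unadjusted p under 0.05), 19 with DESeq2, 3 with limma-voom, 13 with sample quality weights, 1 each by library size only, without a count filter, on the last 1000 bases and outside the last exon, and 0 to 4 without 1 sample. At an unadjusted p under 0.05 there were 1425 with DESeq2, 322 with limma-voom, 1530 with quality weights, 2117 without a filter, 461 with the replicate block, 419 outside the last 1000 bases, 178 outside them and without cdKO replicate 5, and 310 to 1356 without 1 sample. Pairs of V2 genes with an adjusted p under 0.05 fell from 5 to 0 without the 2 farthest samples.

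The same replicate numbers occur in both groups, but deviations of same-numbered samples correlated at 0.09, -0.32, 0.16, 0.43 and 0.36 for replicates 1 to 5, and 2 of 5 correlated best with their own number. The mean was 0.15 for the same number and -0.016 for different numbers. The libraries with the highest share of counts at gene ends were both replicate 5 (52.4% in cdKO, 31.1% in control). The numbers were not taken to pair the samples, although 5 correlations cannot exclude a pairing. With 10 counts required in every sample, Sox14 and Tal2 gave no value. Shox2 gave none on the single highest bin or the last 1000 bases, Gata3 none as a deposited unit, Tal2 none outside the last 1000 bases, Tal2 none outside the last exon, and Sox14 has a single exon. The log2 change of Gata2 without each sample in turn was 0.05 (without control replicate 5) to 0.67. Levels of the V2 genes were low, with standard errors of 0.40 to 0.83 on the log2 scale. Even the change of Shox2 (1.93 ± 0.81, SE) had an adjusted p of 0.939 by edgeR. Changes well above the standard errors could therefore go undetected in these samples.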
